A study of Populus trichocarpa
Populus deltoides with 74 samples.

Results

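PTLF is the poplar homolog of LEAFY, and its level was followed through all 19 groups of buds and shoot tips in a study of flowering and maturation. It was chosen by its name in the deposited table, as 1 of 217 oligos, and 0 of its values were missing on the 74 arrays. LEAFY is a plant transcription factor that gives a young meristem the identity of a flower. In Arabidopsis it switches on APETALA1 and the floral organ genes AGAMOUS and APETALA3, while TERMINAL FLOWER1 keeps it out of the centre of the shoot. Poplars flower only after a juvenile phase of several years, and the LEAFY homolog is known to be transcribed in their floral buds and, more weakly, in vegetative shoots.

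Buds and shoot tips came from wild-type trees, with Populus trichocarpa and Populus deltoides both named as the organism. Lateral vegetative buds of trees aged 1, 2, 5 and 6 years and floral buds of age 6 carry no stated sex, and a second pair of vegetative and floral bud groups of age 6 is labelled male. Shoot tips are labelled female and come from May and from June for each of the 4 ages. For ages 5 and 6, basal tips of either month were sampled as well. Tips not labelled basal are called upper tips here. No month is given for the buds, so buds and tips differ in tree label and possibly in season as well as in organ. Each group had 2 RNA isolations, each hybridised in 2 wells, except the June upper tips of age 5 with 1 isolation. The design text counts isolations as biological replicates but does not say that they came from separate trees, so p-values measure the spread between isolations. In tissue of mixed cells, fewer cells that transcribe a gene and less RNA per cell cannot be told apart.

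Values are quantile-normalized log2 intensities, each isolation being the mean of its 2 wells. Array medians ran from 8.05 to 8.79 (log2) before scaling. Each difference is given ± its standard error (SE) in a limma fit, with p-values adjusted over all 217 oligos and 0.05 as the threshold. PTLF was a fairly steady oligo. Its residual standard deviation (SD) between isolations was 0.22 against a median of 0.30 over all oligos, and its SD between wells was 0.20 against 0.32. Its 19 group means spanned 2.68, against a median span of 2.04. Between 30 and 135 oligos were brighter than PTLF on an array. The labels name no plate or batch. Clustering the differences between wells sorted the isolations into sets, their number being fixed at 5 and not found by the clustering. They are called inferred sets because they come from the values alone, and results were recomputed within them.

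The order of the groups ran from floral buds at the top to May upper tips at the bottom. Male floral buds were at 10.74 ± 0.15 (SD, n = 2) and floral buds of unstated sex at 10.64 ± 0.09 (n = 2). June basal tips of age 6 came next at 9.74 ± 0.01 (n = 2), followed by vegetative buds of age 6 at 9.49 ± 0.18 (n = 2). The single isolation of June upper tips of age 5 was at 9.48, and male vegetative buds of age 6 were at 9.35 ± 0.27 (n = 2). Vegetative buds of age 5 stood at 9.09 ± 0.01 (n = 2) and June basal tips of age 5 at 9.07 ± 0.22 (n = 2). These 8 groups held all the means above 9. The May basal tips followed, at 8.84 ± 0.48 for age 6 and 8.83 ± 0.32 for age 5 (n = 2 each). Then came the June upper tips of age 1 at 8.77 ± 0.02, the May upper tips of age 1 at 8.69 ± 0.22, and the June and May upper tips of age 6, both at 8.58 with SDs of 0.21 and 0.32 (n = 2 each). Vegetative buds of ages 2 and 1 were at 8.56 ± 0.15 and 8.54 ± 0.32 (n = 2 each). The lowest groups were the June upper tips of age 2 at 8.28 ± 0.13, the May upper tips of age 2 at 8.21 ± 0.20 and the May upper tips of age 5 at 8.05 ± 0.10 (n = 2 each).

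**Figure D1:**
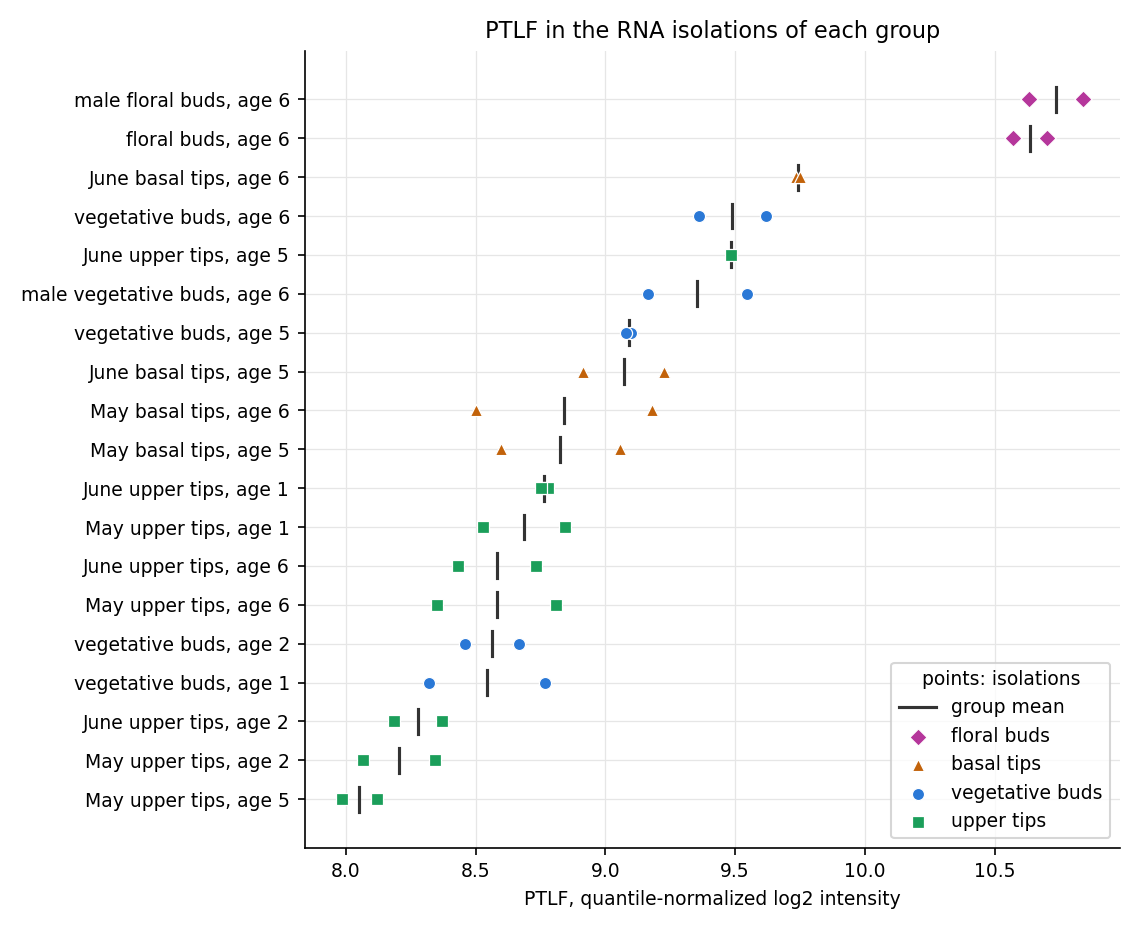
PTLF level (quantile-normalized log2 intensity) in the 19 groups, ordered by group mean. Points are isolations and bars are group means. All 4 floral bud isolations lie between 10.57 and 10.84, above every other isolation, and the other group means run from 8.05 to 9.74.

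Of the 18 steps between neighbours in this order, 1 passed the test, the step from floral buds of unstated sex down to June basal tips of age 6 (0.89 ± 0.23, adjusted p = 0.00339), where 43.3% of all oligos were called. Each of the 34 differences between a floral group and another group passed, from 0.89 to 2.68, with no overlap between their isolations. In these pairs 15.7% to 64.5% of all oligos were called. Among the 136 pairs without floral buds, 51 passed, with differences of up to 1.69 and with 0.922% to 53.5% of all oligos called. The June basal tips of age 6 passed against 12 of the 16 other non-floral groups and the vegetative buds of age 6 against 11.

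The floral comparison asked how much PTLF distinguishes a flower bud from a vegetative bud of the same age. In floral buds of unstated sex the isolations were at 10.57 and 10.70, and in vegetative buds at 9.36 and 9.62. In male trees the floral isolations were at 10.84 and 10.63 and the vegetative ones at 9.54 and 9.16. Every floral isolation lay above every vegetative one in both tree types. The mean difference of 1.26 ± 0.16 corresponds to 2.40-fold if the values are log2 (n = 4 and 4 isolations, adjusted p = 1.62e-06), in a comparison in which 29.5% of all oligos were called. PTLF ranked 25 of 217 by size and 16 by p-value. An exact two-sided permutation test of the 8 isolations gave p = 0.0286, the smallest it can give. Within the single inferred set that holds 7 of these isolations the difference was 1.20 ± 0.16 (adjusted p = 0.00341).

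Tree type did not change this difference detectably. It was 1.15 ± 0.23 in trees of unstated sex (adjusted p = 0.000691) and 1.38 ± 0.23 in male trees (adjusted p = 7.39e-05), with 15.7% and 19.8% of all oligos called. Their gap of 0.24 ± 0.33 did not pass and had a 95% interval from -0.45 to 0.92 (adjusted p = 0.942). Male minus unstated, PTLF differed by -0.14 ± 0.23 in vegetative buds and by 0.10 ± 0.23 in floral buds (adjusted p = 0.823 and 0.931). Their 95% intervals ran from -0.62 to 0.35 and from -0.38 to 0.58. Within the inferred set the difference in trees of unstated sex, 1.02 ± 0.25, missed the threshold (adjusted p = 0.0582), there with 1 vegetative isolation.

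The wider LEAFY network on the array had 11 members. They are 5 homologs of LEAFY targets (PTAP1-1B, PTAP1-2A, PTAG1, PTAG2 and PTD), relatives of TERMINAL FLOWER1 and of MOTHER OF FT AND TFL1 (PCEN-L and PMFT), and homologs of photoperiod and gibberellin genes (PTCO11, PTCO12, GA20-OX and PttGA2-OX). Between floral and vegetative buds 6 of the 11 rose and 1 fell, where 9.68% of all oligos rose and 19.8% fell. The list's median difference was 0.54 against -0.07 for all oligos. The 6 were PTCO11, a CONSTANS homolog, and all 5 target homologs. Each target homolog had a larger difference than PTLF itself, though sizes were not tested between oligos. They ran from 2.50 ± 0.30 for PTD to 5.59 ± 0.52 for PTAP1-2A (adjusted p = 5.85e-07 and 7.42e-09). PTD is a homolog of the petal and stamen gene DEFICIENS, and PTAP1-2A is an APETALA1 homolog. PTAP1-2A held the highest value that quantile normalization allows, 14.26, in 3 of the 4 floral isolations, and as deposited its difference was 5.20 ± 0.60. In shoot tips PTCO11 held that value in both isolations of May basal tips of age 6. PTCO12 held it in isolation a of May upper tips of age 6. PCEN-L, related to TERMINAL FLOWER1, fell by 0.56 ± 0.20 (adjusted p = 0.0363). Neither PCEN-L nor PTCO11 passed in trees of unstated sex or in male trees alone, while all 5 target homologs passed in each. These genes were read from the same arrays as PTLF and are not independent of its result.

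Maturation of the vegetative buds was the next comparison. At age 1 the isolations were at 8.77 and 8.32 and at age 2 at 8.46 and 8.67. They were at 9.10 and 9.08 at age 5 and at 9.36 and 9.62 at age 6. All 4 older isolations lay above all 4 younger ones. PTLF was higher at ages 5 and 6 than at ages 1 and 2 by 0.74 ± 0.16, or 1.67-fold (n = 4 and 4 isolations, adjusted p = 0.00128), with 29.5% of all oligos called, and an exact permutation test gave its smallest possible p of 0.0286. Within the inferred set that holds 7 of the 8 isolations the difference was 0.67 ± 0.16 (adjusted p = 0.0181). A linear slope over the 4 ages was 0.19 per year (adjusted p = 0.000959). It rests on the same older and younger buds and does not show an even yearly rise.

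**Figure D2:**
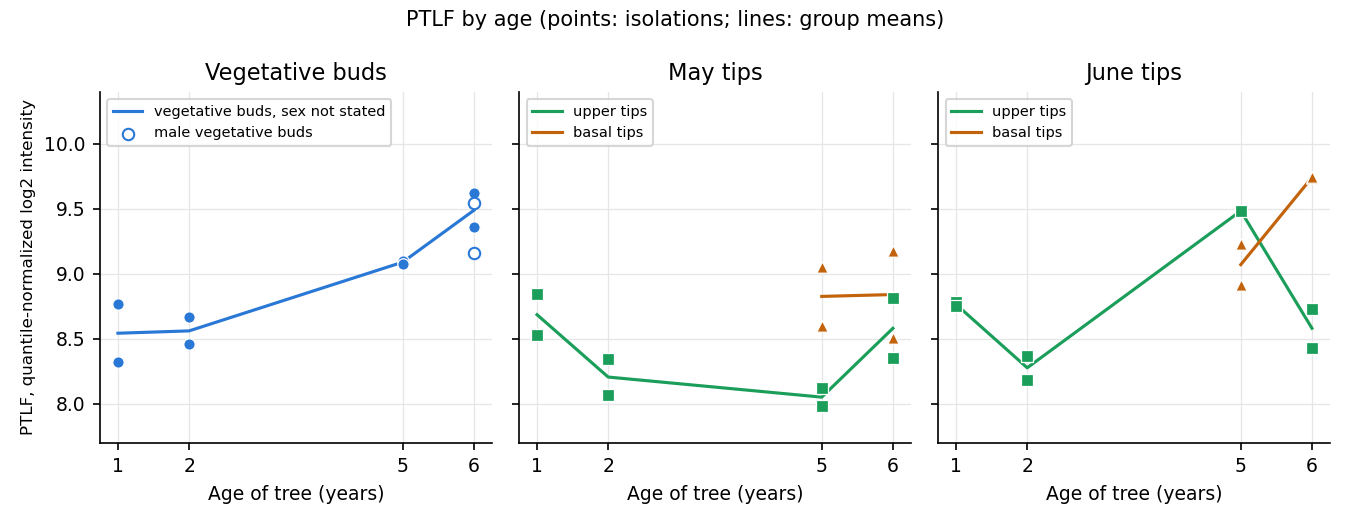
PTLF level (quantile-normalized log2 intensity) against tree age in years for vegetative buds, May tips and June tips. Points are isolations and lines join group means. Vegetative bud means go from 8.54 at age 1 to 9.49 at age 6, May upper tips have their lowest mean of 8.05 at age 5, and the June upper tips of age 5 are 1 isolation at 9.48.

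No single step between successive ages of the vegetative buds passed. Age 2 minus age 1 was 0.02 ± 0.23, age 5 minus age 2 was 0.53 ± 0.23, and age 6 minus age 5 was 0.40 ± 0.23 (adjusted p = 0.966, 0.0986 and 0.379). Against ages 1 and 2 together, contrasts chosen after the values were seen, age 6 was higher by 0.94 ± 0.20 (adjusted p = 0.00209, 20.7% of all oligos called). Age 5 was higher by 0.54 ± 0.20 (adjusted p = 0.0469, 30.4% of all oligos called), a call near the threshold. It was lost without either isolation of age 5 or of age 2, or without isolation b of age 1 (adjusted p up to 0.188), with differences of 0.43 to 0.65 in all 6 such fits.

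Both APETALA1 homologs were followed through the same buds. PTAP1-2A was at 4.84, 4.13 and 4.03 at ages 1, 2 and 5, and at 9.31 at age 6. At age 5 it differed from ages 1 and 2 by -0.46 ± 0.64 and at age 6 by 4.83 ± 0.64 (adjusted p = 0.681 and 7.99e-06). PTAP1-1B, the other APETALA1 homolog, differed by 0.17 ± 0.52 at age 5 and by 2.05 ± 0.52 at age 6 (adjusted p = 0.857 and 0.00536). PTAP1-1B was at 6.14, 6.94, 6.71 and 8.59 at ages 1, 2, 5 and 6. Against ages 1 and 2, PTLF passed at age 6 and, near the threshold, at age 5. The PTLF call at age 5 was lost in several fits without single isolations, and its step from age 5 to age 6 did not pass. Both APETALA1 homologs passed only at age 6. Whether the course of PTLF differs from theirs was not tested. In the male vegetative buds of age 6 the isolations of PTAP1-2A stood apart, at 9.29 and 5.83, while those of PTLF were at 9.54 and 9.16.

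Over ages 5 and 6 against 1 and 2, 2 of the 11 network genes rose in vegetative buds, PTAP1-2A and PttGA2-OX, an enzyme gene of gibberellin inactivation. Both CONSTANS homologs, PTCO11 and PTCO12, fell, by 1.18 ± 0.15 and 1.58 ± 0.17 (adjusted p = 2.98e-06 and 3.06e-07). Of all oligos 15.2% rose and 14.3% fell. CONSTANS is a transcriptional regulator that relays day length to flowering in Arabidopsis. PTAG1 and PTAG2, markers of floral organs, were at 5.97 and 6.44 in vegetative buds of age 6, against 4.57 to 5.08 and 5.43 to 5.92 at the younger ages. Their differences at age 6 from ages 1 and 2, 1.25 ± 0.50 and 0.77 ± 0.37, did not pass (adjusted p = 0.0839 and 0.163). They were at 10.25 and 10.13 in floral buds of unstated sex. In male vegetative buds of age 6 PTAG1 and PTAG2 were at 4.79 and 5.83, within the ranges of the younger ages, with PTLF at 9.35. The part that floral tissue within the vegetative buds of age 6 has in the PTLF level was not tested.

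**Figure D3:**
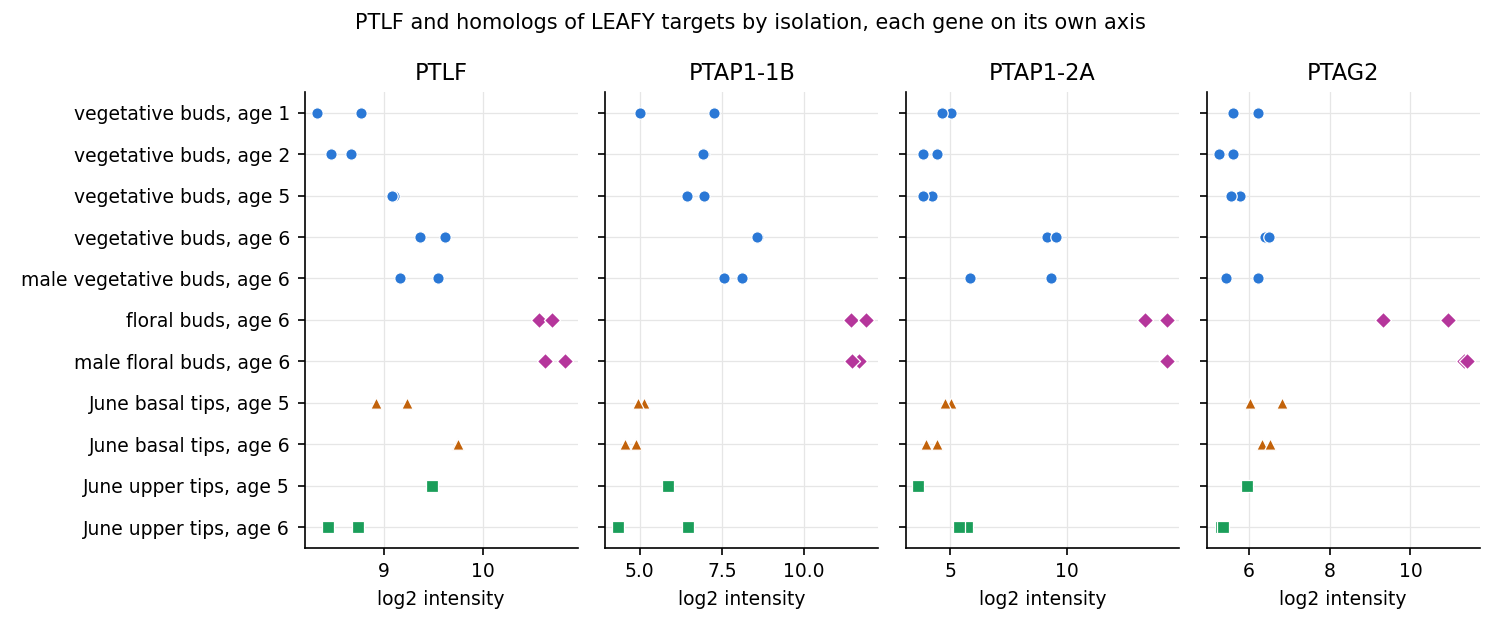
Levels (log2 intensity) of PTLF and 3 homologs of LEAFY targets in single isolations of 11 groups, with a separate horizontal axis for each gene. PTAP1-2A means are 4.03 in vegetative buds of age 5 and 9.31 at age 6, and June basal tips of age 6 combine a PTLF mean of 9.74 with a PTAP1-2A mean of 4.21.

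In upper shoot tips, May and June were taken separately. In May the isolations were at 8.84 and 8.53 at age 1, 8.34 and 8.07 at age 2, 8.12 and 7.98 at age 5, and 8.81 and 8.35 at age 6. The older and younger tips overlapped. Ages 5 and 6 differed from ages 1 and 2 by -0.13 ± 0.16, with a 95% interval from -0.47 to 0.21 (adjusted p = 0.705), where 6.45% of all oligos were called. Age 2 minus age 1 was -0.48 ± 0.23 and age 6 minus age 5 was 0.53 ± 0.23, and neither passed (adjusted p = 0.143 and 0.103). The lowest isolation of the study, at 7.98, was one of age 5. Both isolations of that age also had the widest gaps between wells, 0.92 and 0.65 against a median of 0.20.

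The age difference in vegetative buds exceeded that in May tips by 0.87 ± 0.23 (adjusted p = 0.011), a test of the difference itself in which 18.4% of all oligos were called. With the inferred set as a term it was 0.80 ± 0.24 (adjusted p = 0.0273). Among the 11 network genes PTAP1-2A shared this direction and PTCO11 and PTCO12 had the opposite one, where 9.68% of all oligos had a higher and 8.76% a lower age difference in buds.

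In June the upper tips were at 8.78 and 8.75 at age 1 and at 8.37 and 8.19 at age 2. Age 5 was at 9.48 in its only isolation, and age 6 at 8.73 and 8.43. The isolation of age 5 stood above every other upper tip of either month, and its 2 wells read 9.46 and 9.44 as deposited. Ages 5 and 6 differed from ages 1 and 2 by 0.51 ± 0.18 (n = 3 and 4 isolations), which did not pass (adjusted p = 0.0844), where 7.83% of all oligos were called. Without age 5 the difference was 0.06 (adjusted p = 0.868). The age difference in vegetative buds was not separated from that in June tips (0.23 ± 0.25, adjusted p = 0.545, 24.4% of all oligos called), but without the isolation of age 5 it was larger by 0.88 (adjusted p = 0.0343).

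By its whole profile the isolation of June upper tips of age 5 was closest to other upper tips. It correlated across oligos, which are not independent replicates, at 0.96 with the June tips of age 6 and of age 2. The correlation was 0.85 with both groups of June basal tips. With the May upper tips of ages 1 and 6 it was 0.89, little above the 0.88 with vegetative buds of age 1. Isolations of the same group correlated at 0.94 to 0.99. PTLF was 1.21 ± 0.28 higher there than at age 2 (adjusted p = 0.0228), ranking 3 of 217 by p-value with 2.3% of all oligos called. Age 5 is a single isolation here, so its spread is assumed to equal that of the other groups. The call was lost without isolation b of age 2 (adjusted p = 0.0832) and in a fit of the compared groups alone (adjusted p = 0.708). It was 0.90 ± 0.28 lower at age 6 than at age 5 (adjusted p = 0.121). In the first of these steps the 11 network genes had adjusted p-values from 0.315 to 0.997. PTAP1-2A was at 3.64 in the tips of age 5 and PTAP1-1B at 5.87.

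Position on the tree was compared in tips of ages 5 and 6. May basal tips of age 5 were at 9.06 and 8.60 and upper tips at 8.12 and 7.98. May basal tips of age 6 were at 9.18 and 8.50, and overlapped with upper tips at 8.81 and 8.35. June basal tips of age 5 were at 9.23 and 8.92, both below the single upper isolation of 9.48. June basal tips of age 6 were at 9.74 and 9.75, well above the upper tips at 8.73 and 8.43. Basal tips were thus higher in 3 of the 4 pairings of month and age.

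Averaged over the 4 pairings, PTLF was higher in basal tips by 0.45 ± 0.12, or 1.36-fold (n = 8 and 7 isolations, adjusted p = 0.00529). This is a comparison in which 46.1% of all oligos were called, and PTLF ranked 90 of 217 by size. An exact permutation test of pooled means, which ignores month and age, gave p = 0.0448 for a difference of 0.56. Without the June upper tips of age 5 the mean rose to 0.73 (adjusted p = 0.000102). With the inferred set as a term it was also 0.73, with an SE of 0.21 (adjusted p = 0.0115). Within a single set it could be computed for 2 pairings, 1.004 ± 0.288 for May age 5 (adjusted p = 0.0372) and -0.26 ± 0.42 for June age 5 (adjusted p = 0.731).

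By pairing, the basal difference was 1.16 ± 0.23 in June at age 6 (adjusted p = 0.000316, 39.6% of all oligos called) and 0.78 ± 0.23 in May at age 5 (adjusted p = 0.0118, 33.6% called). It was 0.26 ± 0.23 in May at age 6 and -0.41 ± 0.28 in June at age 5, and neither passed (adjusted p = 0.593 and 0.315). The May call of age 5 was lost without isolation a of the basal tips or b of the upper tips (adjusted p = 0.16 and 0.0686) and in a fit of the compared groups alone (adjusted p = 0.139). The basal difference changed by -0.14 ± 0.25 from May to June and by 0.53 ± 0.25 from age 5 to age 6 (adjusted p = 0.69 and 0.154), where 24.4% and 13.4% of all oligos were called. Both turn sign without the June upper tips of age 5, to 0.90 (adjusted p = 0.0474) and -0.52 (adjusted p = 0.306), since only age 6 or only May then remains. The change from May to June also turned sign, to 0.03, without isolation a of the May basal tips of age 6.

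In basal against upper tips 4 of the 11 network genes rose and 1 fell, where 29% of all oligos rose and 17.1% fell. The list's median difference of 0.11 was close to the 0.12 of all oligos. PTCO11, PTCO12, GA20-OX, which makes gibberellin precursors, and PTAG2 rose. By pairing GA20-OX passed only in June at age 5, at 6.79 in basal tips against 3.89 in the single upper isolation. It was higher without passing in May at age 5 (5.46 against 4.97) and June at age 6 (6.10 against 5.12). In May at age 6 it was lower (5.17 against 5.71). Whether its mean call holds without that single isolation was not tested. PTAG2 passed in no single pairing. PTCO11 was at the highest value that quantile normalization allows in both May basal isolations of age 6. PTCO12 was at it in isolation a of the May upper tips of age 6. PTD fell by 1.08 ± 0.23 (adjusted p = 0.000402). PTAP1-2A differed by 0.11 ± 0.39 and PTAP1-1B by -0.25 ± 0.32 (adjusted p = 0.829 and 0.512). In the June basal tips of age 6, where PTLF was highest outside floral buds, PTAP1-2A was at 4.21 and PTAP1-1B at 4.73. In vegetative buds of age 6, with a similar PTLF level, they were at 9.31 and 8.59.

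Season was compared by setting June tips against May tips. In basal tips of age 6 PTLF stood at 9.74 and 9.75 in June against 9.18 and 8.50 in May, without overlap. In basal tips of age 5 the ranges overlapped, 8.92 to 9.23 in June and 8.60 to 9.06 in May. The mean June difference in basal tips was 0.57 ± 0.16 (n = 4 and 4 isolations, adjusted p = 0.011), with 27.6% of all oligos called. It was 0.90 ± 0.23 at age 6 and 0.24 ± 0.23 at age 5 (adjusted p = 0.00691 and 0.512), with 21.2% and 8.76% of all oligos called. The mean missed the threshold in 3 of the 8 fits without an isolation, those without isolation a of June age 5 (0.49), b of May age 5 (0.46) and b of May age 6 (0.40), with adjusted p = 0.0582, 0.0568 and 0.0995. With the inferred set as a term it was 0.92 ± 0.30 (adjusted p = 0.0744). The call at age 6 was lost without isolation b of the May tips (0.56, adjusted p = 0.214). Of the 11 network genes GA20-OX rose from May to June in basal tips, by 1.13 ± 0.40 (adjusted p = 0.0384). PTCO11 and PTCO12 fell, where 13.8% of all oligos rose and 13.8% fell. Both May isolations of age 6 held the highest value that quantile normalization allows for PTCO11.

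In upper tips the June difference rested on the isolation of age 5. The mean over 4 ages was 0.40 ± 0.12 (n = 7 and 8 isolations, adjusted p = 0.0144), with 35.9% of all oligos called. By age it was 0.08 ± 0.23 at age 1, 0.07 ± 0.23 at age 2, 1.43 ± 0.28 at age 5 and 0.00039 ± 0.23 at age 6. The value at age 5 passed (adjusted p = 0.00363, 5.99% of all oligos called), but it sets 1 isolation, with a spread borrowed from the other groups, against 2, and a fit of these groups alone did not call it (adjusted p = 0.219). Without that isolation the mean was 0.05 (adjusted p = 0.798). An exact permutation test of the pooled isolations gave p = 0.149. No inferred set holds upper tips of both months: those of May were in set 5 and those of June in sets 3 and 4. With the set as a term, which basal tips then link, the June difference was 0.53 at age 2, 1.89 at age 5 and 0.46 at age 6, and could not be fitted at age 1. Of the 11 network genes, 4 fell from May to June in upper tips, PCEN-L, PMFT, PTCO11 and PTCO12, where 18.9% of all oligos fell and 17.1% rose. PTCO11 and PTCO12 passed at ages 1 and 6, and PCEN-L and PMFT at no single age. PCEN-L was at 5.54 in the June isolation of age 5 against 6.59 in May. At the other ages it was at 6.21 to 6.50 in June and 6.44 to 6.76 in May. Whether its call holds without that June isolation was not tested. PTCO12 was at the highest value that quantile normalization allows in isolation a of the May tips of age 6.

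Vegetative buds and upper tips of the same age were set side by side last. No inferred set holds both: all vegetative and floral buds were in sets 1 and 2 and all upper tips in sets 3, 4 and 5. Within a set, buds and upper tips could therefore not be compared. PTLF was higher in the buds by 0.34 ± 0.10 over 4 ages and both months (n = 8 and 15 isolations, adjusted p = 0.0055). As 66.4% of all oligos were called here and PTLF ranked 135 by size, its call is near the background. Of the 11 network genes 3 were higher in the buds, PTAP1-1B by 2.07 ± 0.27, PTAP1-2A by 1.10 ± 0.32 and PTCO12 by 0.31 ± 0.11 (adjusted p = 4.07e-07, 0.00474 and 0.0141). The PTCO12 difference turns to -0.34 ± 0.12 on the values as deposited (adjusted p = 0.0177). PMFT and PTD were lower, where 37.3% of all oligos were higher and 29% lower. The difference from May tips was -0.14 ± 0.23 at age 1 and 0.36 ± 0.23 at age 2, and neither passed (adjusted p = 0.685 and 0.233). It was 1.04 ± 0.23 at age 5 and 0.91 ± 0.23 at age 6 (adjusted p = 0.000712 and 0.00364), where 53.5% and 37.8% of all oligos were called. From June tips the buds differed by -0.22 ± 0.23, 0.28 ± 0.23, -0.39 ± 0.28 and 0.91 ± 0.23 at ages 1, 2, 5 and 6, of which the last passed (adjusted p = 0.603, 0.344, 0.285 and 0.00247). At age 6 50.7% of all oligos were called. Without isolation b of the May tips of age 6 that bud difference was 0.68 (adjusted p = 0.0765). Floral buds exceeded the upper tips of age 6 by 2.10 ± 0.16, or 4.30-fold (n = 4 and 4 isolations, adjusted p = 1.8e-10, 66.4% of all oligos called). The 5 target homologs were also higher in floral buds, from 1.77 ± 0.30 for PTD to 8.83 ± 0.52 for PTAP1-2A (adjusted p = 2.49e-05 and 1.68e-12). As deposited, without that upper limit on PTAP1-2A, its difference was 8.49 ± 0.60. PMFT was lower, where 30.9% of all oligos were higher and 35.5% lower.

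**Figure D4:**
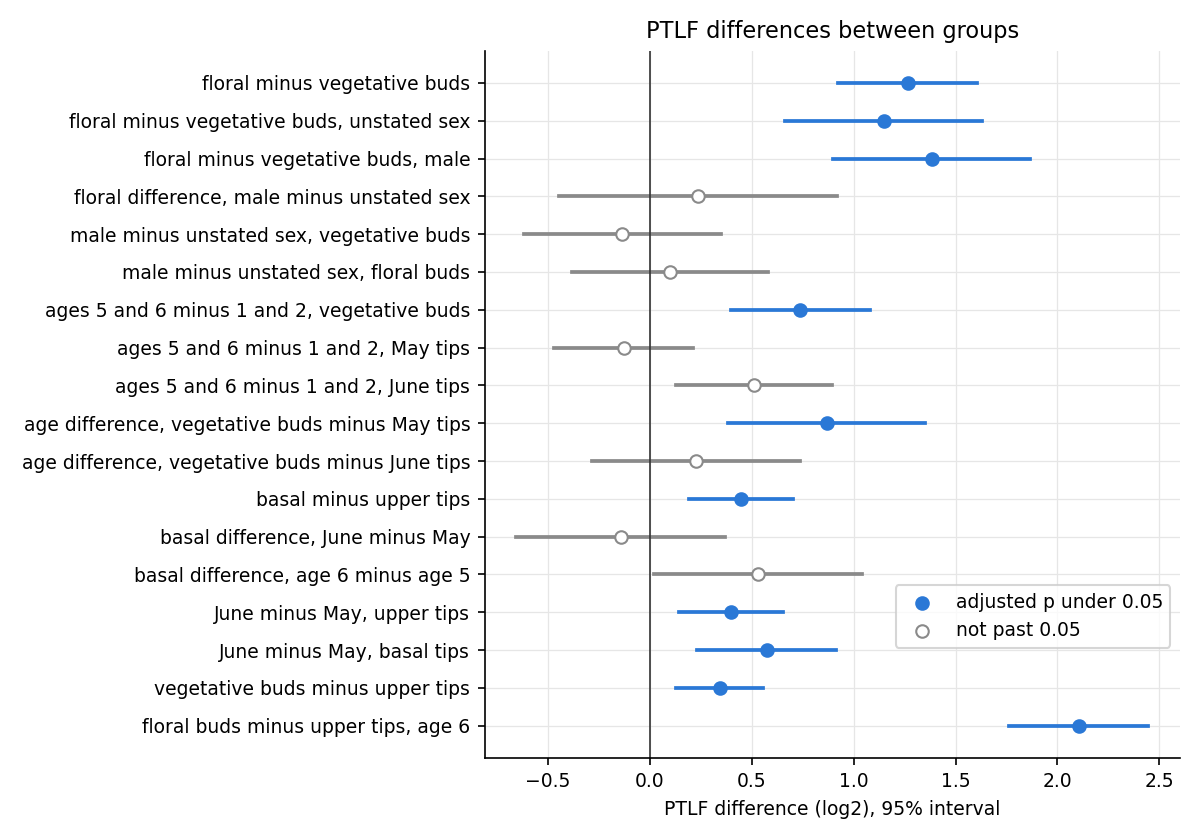
PTLF differences (log2, first minus second group as named) for 18 comparisons, with 95% intervals from limma. Filled points passed an adjusted p of 0.05. Floral buds minus upper tips (2.10) stands highest, followed by floral minus vegetative buds in male trees (1.38) and over both tree types (1.26). Of the other comparisons 6 have intervals that include 0.

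The oligos most like PTLF were sought by the Pearson correlation of group means, given without a p since all oligos share the same arrays. Over the 19 groups the median of the other 216 oligos was -0.01. The clone oligo M129E09 had the highest r of 0.83, followed by PTAP1-1B at 0.82, PTAG2 at 0.81, the clone oligo R24E07 at 0.81 and PTAP1-2A at 0.81. PTAG1 ranked 7 at 0.76. The clone oligo B016P21Um was lowest at -0.84, and PttIAA6, an auxin response gene, lowest among named genes at -0.58. These values were lower when the floral buds were left out. Over the 17 groups without floral buds PTAP1-1B had an r of 0.47, PTAP1-2A of 0.35, PTAG2 of 0.32 and PTAG1 of 0.01.

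Among the 7 bud groups alone, a set chosen after the values were seen, PTAP1-1B was most like PTLF with an r of 0.98, followed by M129E09 at 0.97 and PTAP1-2A at 0.97. High values were common there, with 17 of the 216 oligos over 0.8 and 30 under -0.8. In vegetative buds of ages 1, 2 and 5 PTAP1-1B was at 6.14, 6.94 and 6.71, and PTLF at 8.54, 8.56 and 9.09. Among the 12 shoot tip groups PTAP1-2A had an r of -0.24. R24E07 was the most similar oligo both without the floral buds (r = 0.80, 17 groups) and among the 12 shoot tip groups (r = 0.82). The most similar named genes there were HB1, a homeobox gene by name (0.64 and 0.60), and R-AP2, an AP2-type gene by name (0.65 and 0.60). On the values as deposited R-AP2 was less similar, at 0.46 in both sets of groups.

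**Figure D5:**
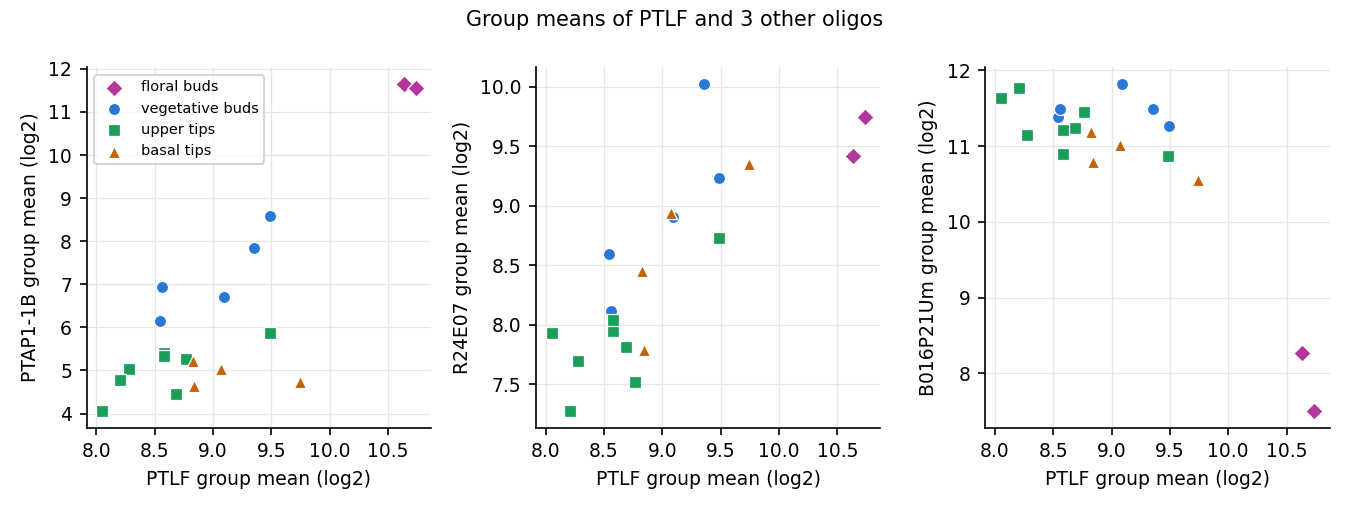
Group means (log2) of PTLF against those of PTAP1-1B, R24E07 and B016P21Um, with 1 point per group. PTAP1-1B has an r of 0.98 with PTLF over the 7 bud groups, which include the floral buds. R24E07 has an r of 0.82 over the 12 shoot tip groups, and B016P21Um is low in the floral buds (r = -0.84 over 19 groups).

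R24E07 was chosen for its likeness to PTLF over these same group means, so where it moved with PTLF is a description and no independent support. It rose with age in vegetative buds by 0.72 ± 0.20, in basal against upper tips by 0.47 ± 0.15, and in June against May basal tips by 1.03 ± 0.20 (adjusted p = 0.00731, 0.0111 and 0.000419). Between floral and vegetative buds, where PTLF rose by 1.26, R24E07 differed by -0.05 ± 0.20 (adjusted p = 0.856). In June tips R24E07 rose with age by 0.73 ± 0.22 (adjusted p = 0.0406), where PTLF did not pass. This difference includes the single isolation of age 5, at 8.73 against group means of 7.52 to 7.94 at the other ages. Whether the rise of R24E07 holds without that isolation was not tested.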

How the data were processed

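The deposited table holds 1 log2 value per oligo and array, as the authors left it. The log2 unit was inferred from the range of the values, 1.1 to 16.25, and the log base is not stated. Per the series' design text, Cy5-labelled RNA was hybridised in duplicate wells of a 96-well plate. The scanner, background correction and normalization are not stated there. Of all values 1.35% were missing. The 74 arrays were quantile-normalized and the wells of an isolation averaged, giving 37 isolations. A limma 3.58.1 model in R 4.3.3 was fitted over 19 group means with 18 residual degrees of freedom, two-sided, with Benjamini-Hochberg adjustment over 217 oligos for each contrast. It was checked on simulated data. Named oligos are PTLF, the network list, and the gene-named and clone-named oligos with the highest and lowest correlation with PTLF. The gene, lists and tests were chosen with earlier results of these data known. Alternatives were the values as deposited, median centring, single wells, other fits, isolations left out and, added after seeing the data, sets inferred from differences between wells.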

Additional observations from a re-analysis of the deposited data

Results flagged for a closer look

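The change of PTLF with age differed between vegetative buds and May upper tips by a test of the difference itself. It was 0.74 ± 0.16 in the buds and -0.13 ± 0.16 in the May tips, a gap of 0.87 ± 0.23 (limma, adjusted p = 0.011). The gap to June upper tips, which have 1 isolation at age 5, was 0.23 ± 0.25 and did not pass (limma, adjusted p = 0.545). The May isolations of age 5 had the widest gaps between wells, 0.92 and 0.65. The 4 older bud isolations all lay above the 4 younger ones, while older and younger May tips overlapped. Buds and tips also differ in tree label, and the month of the buds is not given, so organ, label and season cannot be told apart.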

How the results depend on the processing

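Of 351 alternatives over 18 comparisons, 329 kept direction and side of the threshold. These include all 18 for floral against vegetative buds, all 20 for age in vegetative buds and all 25 for the age difference between buds and May tips. The cause of the changes below was not tested unless the setting itself leaves out samples. Within inferred set 1 the floral difference in trees of unstated sex was 1.02 (adjusted p = 0.0582). Male minus unstated sex in floral buds turned to -0.075 as deposited and -0.005 with median centring, and ran from -0.0045 to 0.20 without single isolations. In vegetative buds it ran from -0.33 to 0.055 without single isolations. The June age difference passed with wells as separate arrays (0.51, adjusted p = 0.0228) and with the isolation letter as a replicate block (0.56, adjusted p = 0.0288), and ran from 0.06 to 0.59 without single isolations. The block changed no other call among the 18 comparisons. Across all oligos the letters a and b did not pair samples (a-minus-b profiles of 2 groups correlated at -0.27 to 0.30, median -0.0096, 153 pairs of groups). PTLF itself was higher in isolation a in 14 of 18 groups and in 10 of the 11 shoot tip groups, and the June tips of age 5 have only isolation b. The age difference between buds and June tips was 0.88 without June tips of age 5, and 0.11 to 0.88 over single isolations left out. Basal minus upper was -0.26 within set 3, where only the June pair of age 5 remains, and 0.36 to 0.73 without single isolations. Its change ran from -0.31 to 0.90 between months and from -0.52 to 0.70 between ages. June minus May in upper tips was 0.30 in the permutation test (p = 0.149, exact) and ran from 0.050 without the June tips of age 5 to 0.45 over single isolations left out. In basal tips it missed the threshold with only the groups compared (0.57, adjusted p = 0.0677), with set as a term (0.92, adjusted p = 0.0744), within set 3 (0.63, adjusted p = 0.614) and in the exact permutation test (0.57, p = 0.114), and ran from 0.40 to 0.74. Among differences of 2 groups, bud age 2 minus 1 turned to -0.015 as deposited and -0.054 with median centring (-0.21 to 0.24 without single isolations). May basal age 6 minus 5 turned to -0.015 as deposited (-0.32 to 0.35). Buds minus May tips at age 1 turned to 0.073 as deposited and 0.63 with set as a term (-0.37 to 0.081), and buds minus June tips at age 1 ran from -0.45 to 0.0018. May basal minus upper at age 6 ran from -0.078 to 0.60. June minus May in upper tips ran from -0.078 to 0.24 at age 1, -0.067 to 0.21 at age 2 and -0.23 to 0.23 at age 6. At age 5 it lost its call with only the groups compared (adjusted p = 0.219). Counts over all oligos moved by more than 1.5 times for age in May tips (14, then 2 to 22), age in June tips (17, then 2 to 23), male against unstated vegetative buds (5, then 0 to 18), floral buds of unstated sex (34, then 21 to 42), male floral buds (43, then 27 with an isolation left out), the age difference of buds and May tips (40, then 25 likewise) and male against unstated floral buds (0, then up to 13 likewise).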
